A study of Mus musculus with 8 samples.

Results

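Loss of the RNA methyltransferase Dnmt2 was examined in the attached stroma of cultured mouse bone marrow, by counting ribosome footprints in 2 knockout and 2 wild-type stroma libraries. Footprints were counted per UCSC known-gene identifier, called an ID here. The 9424 IDs described had 10 or more counts in at least 2 of these 4 libraries, of 20154 IDs in the whole table. Knockout mice (Dnmt2-/-) and wild-type mice were both C57BL/6, taken at postnatal day 8. Marrow mononuclear cells of both genotypes were cultured with 20% serum, 5 ng/ml thrombopoietin, and 10 ng/ml FLT3 ligand and stem cell factor. The cells attached to the dish were collected apart from those in suspension, and 4 suspension libraries of the same genotypes entered the model described below. The labels do not describe the Dnmt2 allele, and they give no animal or culture of origin for a library. The p-values below thus rest on library-to-library spread, which may be technical.

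Dnmt2, also named Trdmt1, resembles the DNA methyltransferases but methylates a cytosine in the anticodon loop of a few tRNAs, among them the tRNA for aspartate. That mark is known to protect these tRNAs from cleavage and to bear on how accurately their codons are read. Marrow stroma holds adherent cells that feed and anchor blood progenitors, such as mesenchymal cells, and adherent macrophages are also found in such cultures. Ribosome profiling sequences the mRNA pieces shielded by ribosomes, so a count depends on how much of an mRNA a cell holds and on how many ribosomes it carries. A count summed over an ID carries no position along the mRNA, so reading of single codons was not measured here. In bulk cultures, fewer cells of a type and less RNA per cell cannot be told apart.

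The table pairs no gene names with its IDs, and 0 of the 20154 IDs were found in the reference tables used here. The level of Dnmt2 in each library, the markers of stroma and of other marrow cells, and the sequences of the IDs were therefore not analysed here. The identity of the libraries rests on their labels alone. Wild-type stroma held 2151743 counts in replicate 1 and 3962230 in replicate 2. Both columns of knockout stroma bear the same header without a replicate number, so they are called library a (1864155 counts) and library b (3154238 counts). Members took 99.6% to 99.7% of the counts in each stroma library.

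Nearly all members were covered in both genotypes. Of the 9424, 8246 reached 10 counts in all 4 stroma libraries, 573 in 3 of them and 556 in 1 library of each genotype. Only the wild-type pair reached 10 counts for 45 IDs, and only the knockout pair for 4. These 49 IDs were scarce, with mean counts of 6.50 to 14.0 over the 4 libraries for the former and 7.50 to 9.25 for the latter. Both knockout libraries were shallower than the deepest wild-type library, and the part of depth in this imbalance was not tested. No member (0) lacked counts in both libraries of a genotype, so each was seen in stroma of both genotypes. The second highest of the 4 counts was exactly 10 for 115 members, just inside the rule, and exactly 9 for 180 IDs just outside it.

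Libraries of the same genotype differed from each other more than the closest libraries of different genotype. The scale here is log2 CPM, the counts scaled to a common library size with edgeR's TMM factors, with a prior count of 2. Wild-type replicates 1 and 2 lay more than 2-fold apart for 661 IDs, or 7.01%. Knockout libraries a and b lay more than 2-fold apart for 679 IDs. Across the genotypes, replicate 1 and library a differed by more than 2-fold for 250 IDs, and replicate 2 and library b for 75. The other pairs of unlike genotype differed for 673 IDs (replicate 1 and library b) and 640 IDs (replicate 2 and library a). The 4 libraries thus formed pairs that each held 1 wild-type and 1 knockout library.

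**Figure D1:**
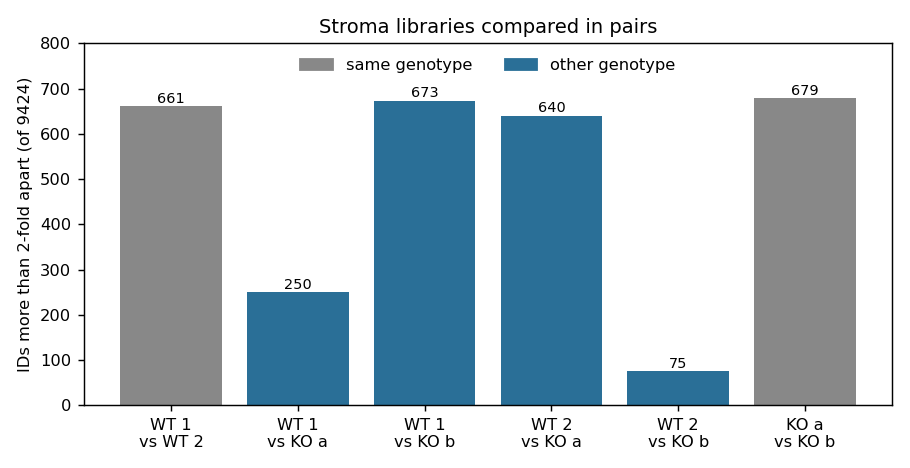
Number of IDs (of 9424) more than 2-fold apart on the log2 CPM scale, for each of the 6 pairs of stroma libraries. Bars for pairs of the same genotype are grey and stand at 661 and 679, while 2 of the 4 blue bars for pairs of other genotype stand at 250 and 75.

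The same order was seen among well-covered IDs, where counting error is smaller than among scarce ones but still a part of each difference. With 100 or more counts in all 4 stroma libraries there were 2802 IDs. Between replicate 1 and library a, 13 of these differed by more than 1.5-fold, and between replicate 2 and library b, 6 did. Within wild type 406 differed by that much (14.5%), and within the knockout 383 (13.7%). The SD of the log2 ratio over these IDs was 0.17 and 0.14 in the former pairs, and 0.42 and 0.41 within the genotypes. Depth moved with this pattern in stroma: replicate 1 and library a were the shallower libraries of their genotypes. Its part in the result was not tested.

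The difference between the libraries of one genotype was largely shared by the other. Replicate 2 minus replicate 1 and library b minus library a share no library, and across the 9424 IDs they correlated with a Pearson's r of 0.627, given as a description. Of the IDs more than 2-fold apart, 288 were so in both genotypes and in the same direction, which is 43.6% of the wild-type list and 42.4% of the knockout list. Another 4 were so in opposite directions. The 183 IDs that were higher in replicate 2 and library b took 1.81% of the counts in replicate 1 and 1.82% in library a, against 3.97% in replicate 2 and 4.27% in library b. The 105 IDs that were lower there took 1.36% and 1.43% in replicate 1 and library a, against 0.476% and 0.465% in replicate 2 and library b. Since the same libraries served to pick these IDs, their shares are a description only.

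**Figure D2:**
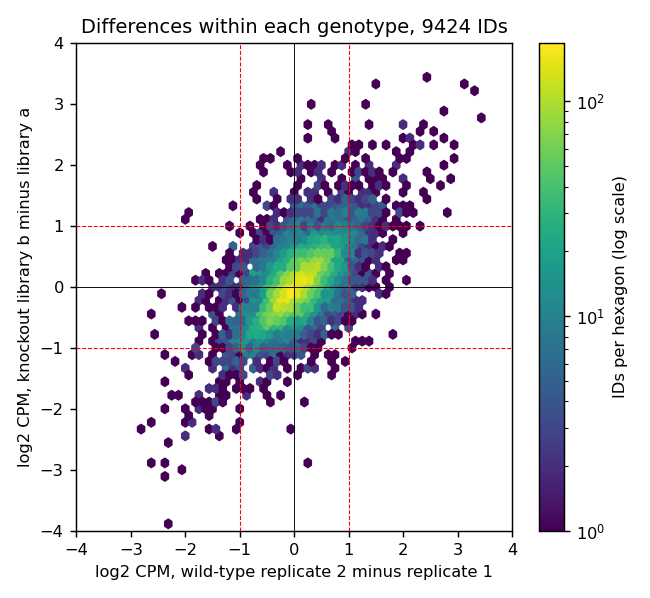
Log2 CPM of wild-type stroma replicate 2 minus replicate 1 (horizontal) against knockout library b minus library a (vertical), as hexagons coloured by the number of IDs on a log scale. Dashed lines mark 2-fold, and the cloud runs along the diagonal (r = 0.627), with 183 IDs beyond 2-fold at the upper right and 105 at the lower left.

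IDs that moved between libraries were also unevenly spread between the fractions of the culture. Over the 8 libraries, edgeR's test of stroma against suspension, averaged over the genotypes, called 1535 members higher in stroma (16.3%) and 1471 lower (15.6%). Among the 183 IDs higher in replicate 2 and library b, 63 (34.4%) were stroma-high and 15 (8.20%) suspension-high. Among the 105 lower IDs the numbers were 3 (2.86%) and 34 (32.4%). Stroma libraries served both to pick the 183 and 105 IDs and to call the fraction difference. These overlaps are thus a description only, and their excess was not tested. The suspension libraries, which did not enter the choice of these IDs, differed in the same direction between their numbered replicates. The median log2 CPM of the 183 IDs was 0.89 higher in replicate 2 than in replicate 1 of wild-type suspension cells and 0.96 higher in the knockout. The median of the 105 IDs was -0.73 and -0.68 in the same comparisons. In suspension, replicate 2 was the shallower library of both genotypes, at 2742492 against 4025780 counts in wild type and 1713729 against 3586961 in the knockout.

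Between the genotypes, the 183 IDs had a median genotype difference of 0.01 on the log2 scale and the 105 IDs one of 0.03, against -0.00421 over all members. No test of genotype was read for these sets, because their choice fixed a wide spread within each genotype.

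The main question was whether footprint levels in stroma changed with loss of Dnmt2. No ID passed: edgeR's quasi-likelihood test, on a model with 4 group means over all 8 libraries, called 0 of 9424 members (0%) at an adjusted p under 0.05, and the lowest adjusted p was 1.00. Absolute log2 fold changes had a median of 0.13, and 90% of members lay within 0.40. More than 2-fold higher in the knockout were 12 IDs, and 18 were more than 2-fold lower. An unadjusted p under 0.05 was reached by 32 members, or 0.34%, of which 12 were higher in the knockout (0.127%) and 20 lower (0.212%). At that level DESeq2's Wald test gave 2 IDs and limma with voom 30, and neither called any after adjustment. The 32 became 52 without wild-type stroma replicate 2, 82 without knockout library b, and 19 without either one of the wild-type suspension replicates. With the leading component of the residuals as a covariate, the number at that level was 114, and no ID was called then either. On that component replicate 1 and library a lay apart from replicate 2 and library b. The component was drawn from the residuals of these same libraries, so fitting it lowers their spread by construction. Without any genotype effect, a share near 0.05 of members would be awaited at an unadjusted p under 0.05. The main test, at 0.34%, thus gave too few low p-values, and the reason was not tested. Its 0 calls do not show that footprint levels were equal in the genotypes.

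The IDs with the lowest p-values were scarce ones. Over the 32, the mean count in the 4 stroma libraries ran from 7.50 to 71.8, with a median of 24.9. The 32 include 4 of the 45 IDs that reached 10 counts only in the wild-type pair. They also include 1 of the 4 that did so only in the knockout pair. Such IDs entered through 1 genotype, so their direction was favoured by the rule. Of the 3747 members with a mean count of 100 or more, none (0) reached an unadjusted p under 0.05, and 1 had a genotype fold above 1.5 in either direction. Among the 2471 members with a mean count under 30, 292 did, and 29 differed by more than 2-fold. The median absolute log2 difference fell with count, from 0.25 under a mean of 30 counts to 0.06 at 1000 or more.

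**Figure D3:**
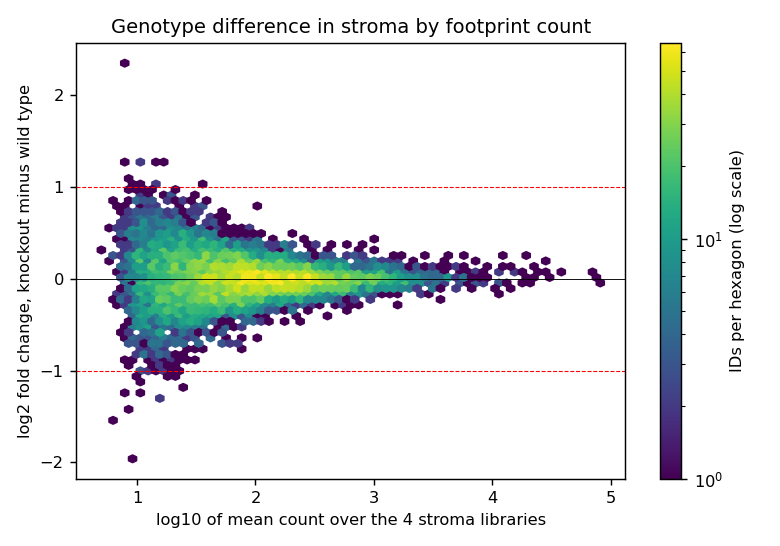
Log2 fold change between knockout and wild-type stroma (vertical) against the log10 of the mean count over the 4 libraries (horizontal), as hexagons coloured by the number of IDs on a log scale. Dashed lines mark 2-fold, and 29 of the 30 IDs beyond them have a mean count under 30.

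A comparison that needs no model gave few IDs with large differences. Groups did not overlap, with both knockout libraries above both wild-type libraries in CPM, for 914 members (9.7%). Both knockout libraries lay below both wild-type libraries for 930 (9.87%). The 930 include 24 of the 45 IDs that reached 10 counts only in the wild-type pair. The 914 include 2 of the 4 IDs that did so only in the knockout pair. The 10-count rule favoured these directions, so the balance of 914 to 930 is not read as a result. Each of the 4 pairs of a knockout and a wild-type library differed by more than 1.5-fold for 15 IDs higher in the knockout (0.159%) and 19 lower (0.202%). Taking both directions together, groups did not overlap for 1844 members (19.6%). If the 4 libraries fell in random order, groups would not overlap for a share of 0.333 of IDs. The library pairs described above depart from a random order, so 0.333 is not the share to be awaited without a genotype effect. Whether the 1844 are an excess was not tested, and they are not read as genotype differences. Every pair exceeded 2-fold for 2 higher IDs (0.0212%) and 1 lower ID (0.0106%). Of the 15 and 19, mean counts had medians of 18.3 and 15.8, and 3 in each direction reached a mean of 30. None (0) of the 34 had a mean of 100 counts or more.

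The IDs named next were the 2 higher and the 2 lower of lowest unadjusted p, among IDs with a mean of 30 counts or more whose groups did not overlap. They were chosen on these libraries, none passed the test, and their differences tend to be too large. The ID uc008doc.1 had 8.56 and 8.76 CPM in wild-type stroma and 17.9 and 17.8 CPM in knockout libraries a and b, from 18, 32, 32 and 52 counts. Both knockout libraries were above both wild-type libraries, and its fold of 2.06 had a 95% interval of 1.19 to 3.56. Its group SDs of 0.137 and 0.0344 CPM were below the counting error of a single library, which was 1.55 to 3.16 CPM if each count was an independent molecule. The ID uc008hvv.1 had 15.2 and 14.8 CPM in the wild-type libraries, against 24.0 and 26.0 CPM in the knockout, from 32, 54, 43 and 76 counts. Here too the groups were apart, with a fold of 1.67 and an interval of 1.07 to 2.61.

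Of the lower IDs, uc007whs.1 had 31.9 and 29.8 CPM in the wild-type libraries, against 21.8 and 16.1 CPM in the knockout, from 67, 109, 39 and 47 counts. The knockout libraries of uc007whs.1 had counting errors of 3.49 and 2.35 CPM, so the gap between them is not read as a difference. Its fold was 0.608 with an interval of 0.409 to 0.904. The ID uc007ava.2 had 34.3 and 33.1 CPM in the wild-type libraries, against 18.4 and 20.9 CPM in the knockout, from 72, 121, 33 and 61 counts. Both of its knockout libraries were low, at a fold of 0.587 with an interval of 0.382 to 0.901. Adjusted p-values in edgeR's test were 1.00 for all 4 IDs.

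In suspension cells the genotypes overlapped for all 4 named IDs. The ID uc008doc.1 had 6.14 and 9.98 CPM in wild type and 7.84 and 5.04 CPM in the knockout. The wild-type suspension libraries of uc008hvv.1 had 30.2 and 39.6 CPM, and its knockout libraries 24.6 and 35.3. For uc007ava.2 the values were 25.7 and 36.8 CPM for wild-type and 28.4 and 36.4 CPM for knockout libraries. The interaction, which is the stroma minus the suspension difference, had an adjusted p of 1.00 (edgeR) for each of the 4 named IDs. Its log2 value was 1.29 ± 0.51 for uc008doc.1 and -0.82 ± 0.38 for uc007ava.2 (SE).

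**Figure D4:**
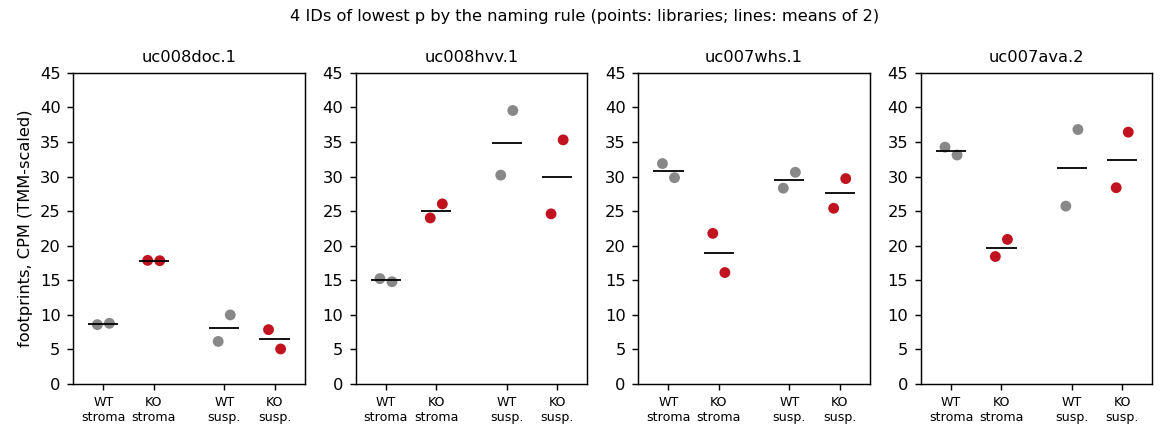
TMM-scaled CPM of the 4 named IDs in each library (points, grey for wild type and red for knockout) with the mean of each group of 2 (lines), in stroma and in suspension (susp.). In stroma the genotypes do not overlap, which the naming rule required, while in suspension they overlap for each of the 4 IDs.

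The most abundant IDs, which take a large share of the footprints, had overlapping levels in the genotypes, with intervals that differed widely between IDs. The 10 with the highest mean CPM took 14.0% and 15.8% of the counts in wild-type replicates 1 and 2, and 14.4% and 16.0% in knockout libraries a and b. The share thus followed the library pairs described above. All 10 overlapped between the genotypes, with fitted folds of 0.973 to 1.12. Overlap is likely where libraries of 1 genotype lie far apart, so it does not show equal levels. The eighth ID by rank, for example, had 5688 and 11797 CPM in wild type and 5210 and 13293 CPM in the knockout. The most abundant ID took 3.45% and 2.75% of the wild-type counts, and 3.52% and 2.46% of the knockout counts. Its fold was 0.973, with a 95% interval of 0.623 to 1.52. The second took 2.66% and 2.99% of the former and 2.74% and 2.98% of the latter, at a fold of 1.02 (0.552 to 1.88). Bounds of 2-fold held the interval for 6 of the 10, and the widest, of the eighth ID by rank, ran from 0.362 to 3.09. Over the 500 most abundant IDs, which held 57.4% to 59.8% of each library, fitted folds lay between 0.823 and 1.33. Groups did not overlap for 19 of these 500 in the upward and 20 in the downward direction, where all members gave 9.7% and 9.87%. Both directions together made 7.60% of the members with a mean count of 1000 or more, so this share was low at high counts.

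The 95% interval of the genotype fold change was narrower with more counts, up to a point. These intervals rest on the spread between libraries, which may be technical, so they do not bound the change between animals. Bounds of 2-fold up and down held the whole 95% interval of the genotype fold change for 5652 members, or 60.0%, and bounds of 1.5-fold for 815, or 8.65%. Each interval stands for its ID alone. Under a mean of 30 counts 12.5% of IDs were bounded within 2-fold, from 30 to 100 counts 65.7%, and from 100 to 300 counts 86.5%. Higher counts did not add to this, with 87.7% from 300 to 1000 counts and 82.9% at 1000 or more. The median SE was 0.47 under 30 counts and 0.27, 0.27 and 0.28 in the upper 3 classes. With a single library left in a genotype, the 5652 became 3222 and 2681 without wild-type replicates 1 and 2, and 3070 and 2718 without knockout libraries a and b.

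**Figure D5:**
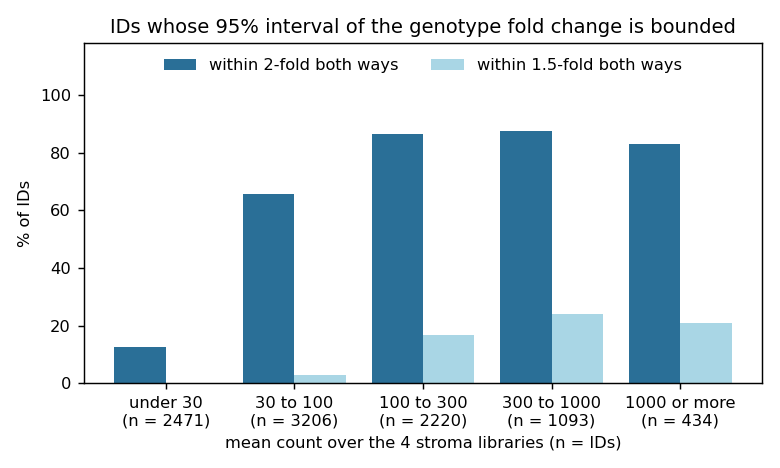
Share of IDs whose 95% interval of the genotype fold change lies within 2-fold (dark bars) or 1.5-fold (light bars) in both directions, by mean count over the 4 stroma libraries, with the number of IDs in each class. The dark bars stand at 12.5%, 65.7%, 86.5%, 87.7% and 82.9% from left to right.

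Footprints typical of either fraction of the culture took like shares in both genotypes. The stroma-high IDs, 1535 in number, held 34.6% and 41.9% of the counts in wild-type replicates 1 and 2, and 35.2% and 42.4% in knockout libraries a and b. Group means were 38.2% ± 5.1 and 38.8% ± 5.0 (SD, n = 2 each). That SD holds the difference between the library pairs described above. Library a was 0.631 percentage points above replicate 1 and library b 0.490 above replicate 2, while library b minus replicate 1 was 7.77 and library a minus replicate 2 was -6.65. The 1471 suspension-high IDs held 9.95% and 8.14% of wild-type and 9.94% and 8.14% of knockout counts. In the suspension libraries themselves the lists held 12.5% to 15.5% and 24.3% to 28.1%. The same libraries served to pick the lists, so the direction of this gap between the fractions was fixed by the choice. An exact permutation test of 2 libraries against 2 cannot give a p below 0.333, so these shares were not tested.

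Within each list the genotype differences lay around 0. The median log2 fold change was 0.00460 for stroma-high IDs, of which 781 (50.9%) were higher in the knockout. For suspension-high IDs it was -0.03, with 661 (44.9%) higher, and for the 6418 other members -0.00225, with 49.5% higher. Groups did not overlap for 127 stroma-high IDs in the upward and 86 in the downward direction. The numbers for suspension-high IDs were 148 and 192, where all members gave 9.7% upward and 9.87% downward. The 10-count rule favoured a direction for IDs that entered through 1 genotype. The balance of directions within a list was not tested and is not read as a result. Both directions together made 13.9% of stroma-high and 23.1% of suspension-high IDs, against 19.6% of all members. Over all members this share fell with the mean count in stroma, from 24.8% under 30 counts to 7.60% at 1000 or more. The part of count level in the gap between the lists was not tested. Unadjusted p-values under 0.05 were reached by 2 stroma-high (0.130%) and 10 suspension-high IDs (0.680%) in edgeR's test, against 0.34% of all members, and none of either list passed after adjustment.

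Whether the genotype difference in stroma differed from that in suspension cells was tested as an interaction over the same members. EdgeR's quasi-likelihood test called 0 of 9424 (0%), with 36 at an unadjusted p under 0.05 (0.382%) and a lowest adjusted p of 1.00. Neither DESeq2 (6 IDs at that level) nor limma with voom (34) called any. The 0.382% is also below a share of 0.05, so the 0 calls do not show that the genotype differences were equal. The 36 became 88 and 76 without replicates 1 and 2 of knockout suspension cells. Of the 32 members of lowest p in stroma, 15 had a fitted suspension difference of the same sign. No share over all members stands beside this number, so the 15 are not read as a result.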

How the data were processed

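The authors deposited raw whole-number counts of ribosome footprints per UCSC known-gene ID, 1 column per library, per the file headers. Per the labels' protocols, fragments of 28 to 31 nucleotides were size-selected after cycloheximide and RNase I. The submitters' processing notes name Bowtie and the mouse build mm9. The version of Bowtie and the way reads were assigned to IDs, strand and multiple matches included, were not given in the sources used here. Counts of near-identical IDs are therefore uncertain. No molecular identifiers are named, so counting errors take PCR copies as molecules. Of the columns, 6 matched 1 sample by its description, and the knockout stroma columns matched their group only.

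Members were tested with edgeR 4.0.16 (R 4.3.3): TMM scaling, a quasi-likelihood model of 4 group means over 8 libraries, and Benjamini-Hochberg adjustment over all members, called at 0.05. Fold changes carry no prior count; SE and 95% intervals derive from the F statistic. The fits were tested on simulated data in which libraries varied independently. Such data lack the difference shared by the library pairs, so the fit was not tested for it. Alternatives used DESeq2 1.42.0, limma 3.58.1, other scalings and filters, a residual covariate and left-out libraries. The named IDs were, with fewer than 5 calls, the 2 of lowest p in each direction with non-overlapping groups and a mean of 30 counts or more. The gene-name lists that were planned could not be applied without names. The members and lists were chosen with earlier results of these data known. Totals lay between 1713729 and 4025780 counts. Intervals of single IDs are not adjusted for their number.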

Additional observations from a re-analysis of the deposited data

How the results depend on the processing

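The 0 calls between the genotypes in stroma stayed at 0 under all 19 alternatives, and the 0 calls of the interaction under all 18 that could be run. With stroma libraries only, no interaction can be formed. The number of members at an unadjusted p under 0.05 between the genotypes (32) was 2 with DESeq2, 74 without a low-count filter, where more IDs were tested, 15 with 30 or more counts required, where fewer were, and 114 with a covariate, the leading component of the residuals, which held 63.0% of the variance within groups. The covariate was drawn from the residuals of these same libraries, so fitting it lowers their spread by construction, for the intervals below too. The cause was not tested for DESeq2. Leaving out 1 library each gave 19 to 82. For the interaction (36), these numbers were 6, 76, 18 and 139, and 30 to 88 with 1 library left out. The intervals within 2-fold (5652) numbered 2681 to 5947 with 1 library left out, and 7359 with the residual covariate. A group with a single library was assumed to vary like the others. The 4 named IDs kept their direction under all 19 alternatives, with no adjusted p below 0.999 in edgeR's, DESeq2's or limma's test. Raw library sizes gave 856 and 955 IDs whose groups did not overlap, against 914 and 930. Lists called with DESeq2 gave shares of 39.4% and 39.9% for stroma-high IDs in wild type and knockout, and 8.39% and 8.40% for suspension-high IDs.

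The replicate number of each knockout stroma column is unknown, so no pairing could be fixed. After seeing the data, a replicate block over the 8 libraries was fitted with both possible numberings, and neither was chosen. With library a as number 1, the replicate block gave 97 members at an unadjusted p under 0.05, 128 for the interaction and 7261 intervals within 2-fold. With library a as number 2, these were 30, 34 and 5840.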
